A study of Neurospora crassa with 2 samples.

Results

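The alternative oxidase genes and 3 alternative NAD(P)H dehydrogenase genes, 5 genes of the branched, non-proton-pumping part of the Neurospora crassa respiratory chain, were examined among the 9730 genes of the deposited table. They were taken by locus tag and not by a cutoff on their values, but with earlier results of these data known. The 5 are the alternative oxidase genes aod-1 (NCU07953) and aod-3 (NCU04874), and the rotenone-insensitive NAD(P)H dehydrogenase genes ndi-1 (NCU00153), nde-1 (NCU05225) and nde-2 (NCU08980). NCU04874 is named aod-3 in the reference gene table, in which aod-2 is another locus, NCU03352. RNA was sequenced from mycelia of 2 strains, with 1 library each, after 20 h of preculture in minimal medium and 4 h in Vogel's salts with 1% cellobiose. The Δ3βGΔncw-1 strain lacks ncw-1, the gene of a cell wall protein without an anchor, in addition to 3 genes of β-glucosidases, gh3-3, gh3-4 and gh1-1. The Δ3βG strain lacks those 3 β-glucosidase genes only, so no library comes from a strain in which these 3 genes are intact. The question is how transcript levels differ between these 2 strains. Both genotype labels end in a, but a mat A transcript was seen in Δ3βGΔncw-1 only, as given below. A difference thus cannot be assigned to the removal of ncw-1 alone. With 1 library per genotype no test between genotypes was possible, and no difference below has a replicate check.

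Fungal mitochondria carry electron carriers that work beside the standard chain. Alternative NAD(P)H dehydrogenases pass electrons to ubiquinone without pumping protons, from the matrix side for the internal enzyme NDI-1 and from the outer face of the inner membrane for the external enzymes. The alternative oxidase takes electrons from ubiquinol straight to oxygen, so that complex III, cytochrome c and complex IV are bypassed. In N. crassa aod-1 is known as a gene with low expression while the cytochrome chain works and with induction when that chain is blocked, through the zinc-cluster transcription factors encoded by aod-2 and aod-5.

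Values are RPKM (reads by length of the gene model and by depth of the library), and the libraries held 20019350 reads in Δ3βGΔncw-1 and 20510798 reads in Δ3βG. The 95% intervals come from whole reads recovered from those values and cover counting error only, not variation between cultures. A log2 ratio sets RPKM + 1 of Δ3βGΔncw-1 over that of Δ3βG, which understates differences of genes with low RPKM. The level of ncw-1 (NCU05137) was 2.62 RPKM in Δ3βGΔncw-1 and 435 RPKM in Δ3βG, in the direction of the labels. The 3 shared deletions left few reads, with 3.41 RPKM in Δ3βGΔncw-1 and 1.09 RPKM in Δ3βG for gh1-1, 1.02 RPKM in Δ3βGΔncw-1 and 0.637 RPKM in Δ3βG for gh3-3, and 0.350 RPKM in Δ3βGΔncw-1 and 0.342 RPKM in Δ3βG for gh3-4. The genotype label of each strain ends in a, but the mat A gene matA-1 (NCU01958) had 15.4 RPKM in Δ3βGΔncw-1 and was listed at 0 in Δ3βG. The gene ccg-4 (NCU02500), taken as a further check of the labels, had 87.9 RPKM in Δ3βGΔncw-1 and was listed at 0 in Δ3βG. Of the other mat A genes, matA-3 had 0.269 RPKM in Δ3βGΔncw-1 and 0 in Δ3βG, and matA-2 was at 0 in both. The strains thus differed in these transcripts too, and the part of mating type in the values below was not tested. Over the 5988 genes that reached 10 RPKM in either library, deleted genes left out, the median log2 ratio was −0.32. The RPKM of a typical gene was thus 1.25-fold lower in Δ3βGΔncw-1, a value relative to library depth and not an amount per cell. Of the 5988 genes 11.1% were at least 2-fold lower, 8.08% were at least 2-fold higher and 69.4% had a log2 ratio below 0. Relative to the median gene, 5.73% were at least 2-fold lower and 11.3% at least 2-fold higher. All 5 genes examined had a log2 ratio below 0, where 67.5% of all genes above 0 RPKM in either library did.

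The alternative oxidase transcripts were lower in Δ3βGΔncw-1. The main oxidase gene, aod-1, had 5.58 RPKM in Δ3βGΔncw-1 (209 reads) and 14.7 RPKM in Δ3βG (563 reads), which is 2.63-fold lower (2.24 to 3.10). Its log2 ratio was −1.25, past the 2-fold size rule. Relative to the median gene it was −0.93, which is short of 2-fold, while without the added 1 RPKM it was −1.06, or 2.08-fold lower than the median gene. The gene reached 10 RPKM in Δ3βG only, and a gene that does so can count as lower but not as higher by the rule.

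The other oxidase gene, aod-3, was close to the detection limit. It had 0.236 RPKM in Δ3βGΔncw-1 and 1.15 RPKM in Δ3βG, 4.88-fold lower, with an interval from 2.36 to 11.4. This rests on 9 to 15 reads in Δ3βGΔncw-1 and on 45 to 75 reads in Δ3βG, depending on the length of the gene model, which the values do not fix. The added 1 RPKM brings its log2 ratio to −0.80, against −2.29 for the plain ratio. Whether aod-3 differed more than aod-1 could not be resolved, since the ratio of aod-1 to aod-3 was 23.6 in Δ3βGΔncw-1 and 12.7 in Δ3βG and its 1.86-fold difference had an interval from 0.876 to 4.39. The RPKM of both oxidase genes summed to 5.81 in Δ3βGΔncw-1, with 4.06% from aod-3, and to 15.8 in Δ3βG, with 7.28% from aod-3.

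The 3 NAD(P)H dehydrogenase genes gave smaller differences. The gene nde-1, whose product is known as an external, calcium-dependent NADPH dehydrogenase, had 14.8 RPKM in Δ3βGΔncw-1 and 21.8 RPKM in Δ3βG. It was 1.47-fold lower (1.32 to 1.63), with a log2 ratio of −0.53 as deposited and −0.21 relative to the median gene, and so was not past 2-fold. In the reference assembly the span of nde-1 overlaps that of NCU05226, which had 6.34 RPKM in Δ3βGΔncw-1 and 8.41 RPKM in Δ3βG. Reads of the overlap may not be assigned to the right gene, because the strand setting of the counting is not given in the sources used here. No other member overlapped a neighbour.

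The gene nde-2, for another external dehydrogenase, had 8.31 RPKM in Δ3βGΔncw-1 (438 reads) and 8.32 RPKM in Δ3βG (449 reads). The ratio was 0.999 with an interval from 0.874 to 1.14. At the deposited scaling, counting error alone thus spans up to 1.14-fold in either direction, which does not bound the difference between strains. Its log2 ratio of −0.00071 became 0.32 relative to the median gene and 0.29 with trimmed mean scaling. The internal dehydrogenase gene ndi-1 had 1.46 RPKM in Δ3βGΔncw-1 (94 reads) and 1.86 RPKM in Δ3βG (123 reads). In Δ3βGΔncw-1 this was below the values left for the deleted genes ncw-1 (2.62 RPKM) and gh1-1 (3.41 RPKM). In Δ3βG it was above that of the deleted gh1-1 (1.09 RPKM). The ndi-1 ratio of 0.783 had an interval from 0.592 to 1.03, which includes no difference. Its log2 ratio of −0.22 turned to 0.10 relative to the median gene, and to −0.018 there without the added 1 RPKM.

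**Figure D1:**
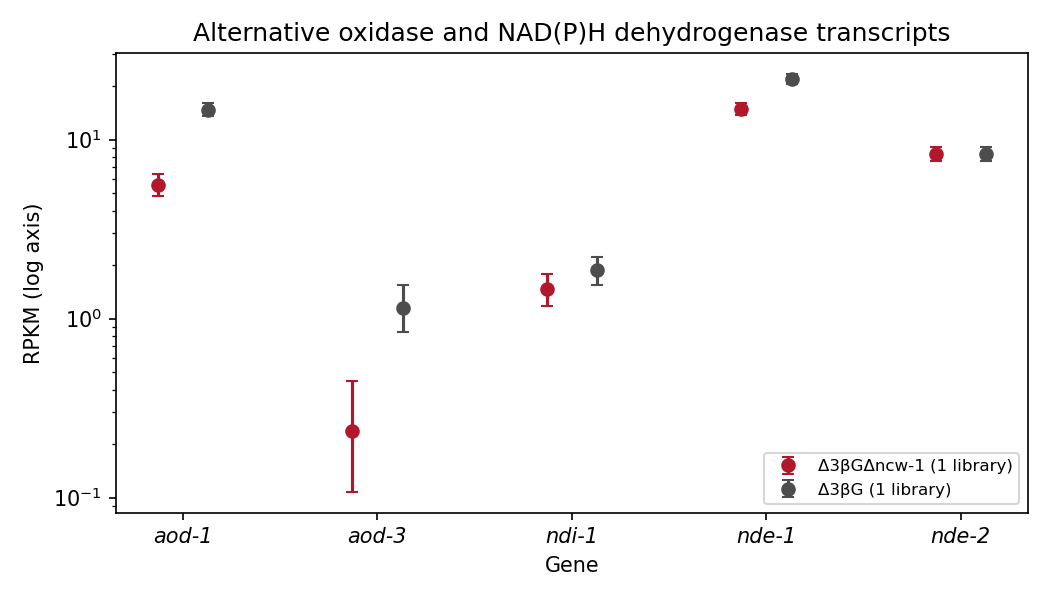
RPKM of the 5 genes on a log axis in the Δ3βGΔncw-1 library (red, left of each pair) and the Δ3βG library (grey, right); points are the deposited values of 1 library each and bars are 95% Poisson intervals from recovered reads. The intervals are apart for aod-1 (5.58 and 14.7 RPKM), aod-3 and nde-1, and overlap for nde-2 and ndi-1.

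The order of the 5 levels differed between the strains. In Δ3βGΔncw-1 the order from high to low was nde-1 at 14.8 RPKM (13.7 to 16.1), nde-2 at 8.31 (7.55 to 9.13), aod-1 at 5.58 (4.85 to 6.39), ndi-1 at 1.46 (1.18 to 1.78) and aod-3 at 0.236 (0.108 to 0.448). In Δ3βG it was nde-1 at 21.8 RPKM (20.4 to 23.3), aod-1 at 14.7 (13.5 to 15.9), nde-2 at 8.32 (7.57 to 9.12), ndi-1 at 1.86 (1.55 to 2.22) and aod-3 at 1.15 (0.840 to 1.54). The genes aod-1 and nde-2 thus changed places, and no neighbours in either order had overlapping counting intervals, though ndi-1 and aod-3 nearly met in Δ3βG. In Δ3βGΔncw-1 both ndi-1 and aod-3 were below the 2.62 RPKM left there for the deleted ncw-1.

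A ratio of 2 genes within a library does not depend on how the libraries are scaled. By this measure aod-1 was lower than nde-2, with a ratio of 0.671 in Δ3βGΔncw-1, and higher than nde-2, with 1.76, in Δ3βG, so that the first ratio was 0.381 times the second (0.308 to 0.470). Against nde-1, the ratio of aod-1 was 0.376 in Δ3βGΔncw-1 and 0.672 in Δ3βG, which is 0.559 times as high (0.460 to 0.679). The dehydrogenase genes differed among themselves too, with a ratio of nde-1 to nde-2 of 1.78 in Δ3βGΔncw-1 and 2.62 in Δ3βG, which is 0.680 times as high (0.573 to 0.807). The ratio of nde-2 to ndi-1 was 5.71 in Δ3βGΔncw-1 and 4.47 in Δ3βG, and the quotient of 1.28 had an interval that includes 1 (0.937 to 1.74).

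The reference table names a further dehydrogenase gene of the family, nde-3 (NCU09447), which is not among the 5 and was looked up after the values had been seen. It had 11.5 RPKM in Δ3βGΔncw-1 and 24.2 RPKM in Δ3βG, 2.09-fold lower (1.88 to 2.33). Its log2 ratio of −1.005 was just past the 2-fold rule as deposited and was −0.68 relative to the median gene. In Δ3βG nde-3 had a higher level than nde-1, with a ratio of 1.11, and in Δ3βGΔncw-1 a lower one, with a ratio of 0.778, which is 0.702 times as high (0.604 to 0.816).

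The genes of the regulators of aod-1 were lower as well, by less than aod-1 itself. The RPKM of aod-2 (NCU03352) was 8.81 in Δ3βGΔncw-1 and 15.3 in Δ3βG, 1.74-fold lower (1.55 to 1.95), and that of aod-5 (NCU03938) was 18.02 in Δ3βGΔncw-1 and 24.8 in Δ3βG, 1.37-fold lower (1.29 to 1.46). Neither passed 2-fold, and relative to the median gene the log2 ratio was −0.41 for aod-2 and −0.12 for aod-5. The ratio of aod-1 to aod-2 in Δ3βGΔncw-1 was 0.661 times that in Δ3βG (0.541 to 0.807), and the ratio of aod-1 to aod-5 was 0.523 times that in Δ3βG (0.439 to 0.621).

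**Figure D2:**
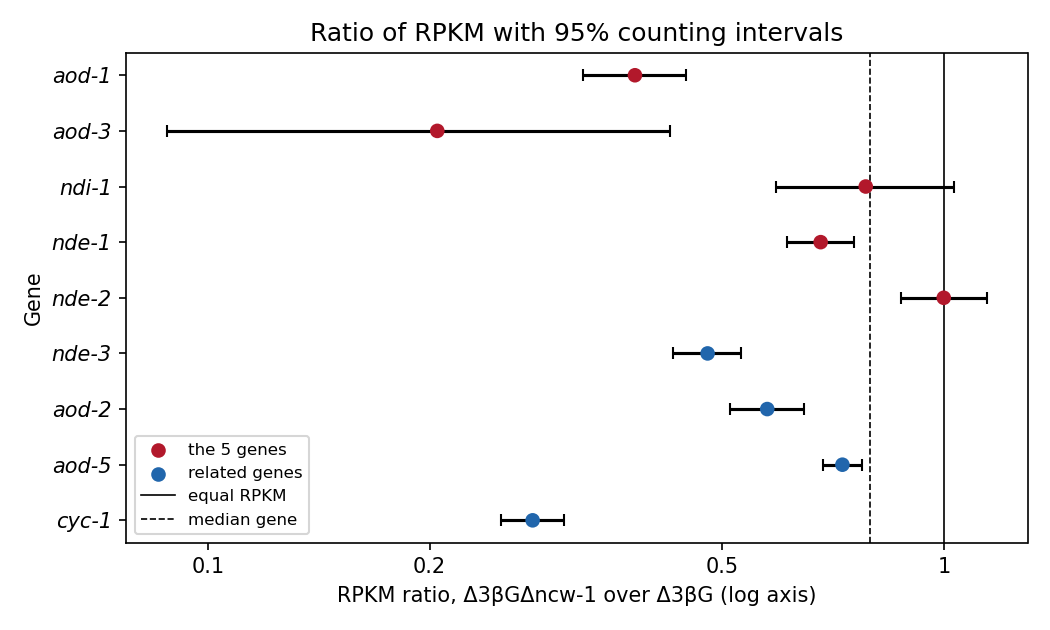
Ratio of RPKM, Δ3βGΔncw-1 over Δ3βG, on a log axis for the 5 genes (red) and for nde-3, aod-2, aod-5 and the cytochrome c gene cyc-1 (blue), with 95% exact counting intervals; the solid line marks equal RPKM and the dashed line the median gene. The intervals of aod-1 (0.323 to 0.447), aod-3, nde-1, nde-3, aod-2, aod-5 and cyc-1 lie below the dashed line, and those of nde-2 and ndi-1 include 1.

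The genes of the standard chain mostly had a log2 ratio above 0, at 36 of 43. Of these 43, the listed genes of complexes I, III and IV, cytochrome c and the ATP synthase at 10 RPKM or more in either library, 0 were higher and 1 was lower by the 2-fold rule. By that rule 8.08% of the 5988 genes were higher and 11.1% lower. The complex IV list includes cyt-2, the gene of an enzyme that acts on cytochrome c. The 30 complex I genes, which encode the proton-pumping NADH dehydrogenase that the alternative enzymes stand beside, ran from 90.5 to 547 RPKM in Δ3βGΔncw-1 and from 88.4 to 366 RPKM in Δ3βG. Of these, 27 had a log2 ratio above 0, where 30.6% of the 5988 genes at 10 RPKM or more did, and the list median was 0.19 as deposited and 0.51 relative to the median gene. The members furthest from 0 were nuo14.8 (NCU00418), with 547 RPKM in Δ3βGΔncw-1 and 366 RPKM in Δ3βG, and nuo78 (NCU01765), with 207 RPKM in Δ3βGΔncw-1 and 142 RPKM in Δ3βG. The median complex I gene had 31.1 times the RPKM of aod-1 in Δ3βGΔncw-1 and 10.03 times in Δ3βG. It had 7.05 times the summed RPKM of nde-1, nde-2 and ndi-1 in Δ3βGΔncw-1 and 4.60 times in Δ3βG.

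The list of complex IV, the terminal oxidase of the standard chain, had 3 of 4 genes with a log2 ratio above 0, and none past 2-fold. The 1 gene below 0 was cyt-2, which is in the list but acts on cytochrome c. By the same measures, 30.6% of the 5988 genes were above 0 and 19.2% were past 2-fold in either direction. The gene cox-6 (NCU06695) had 436 RPKM in Δ3βGΔncw-1 and 280 RPKM in Δ3βG, and cya-4 (NCU05457) had 358 RPKM in Δ3βGΔncw-1 and 231 RPKM in Δ3βG. The ratio of aod-1 to cox-6 was 0.0128 in Δ3βGΔncw-1 and 0.0524 in Δ3βG, which is 0.244 times as high (0.207 to 0.287). Of the other list members, cox-4 had a log2 ratio of 0.30, cyt-2 (NCU05601), for the heme lyase that attaches heme to cytochrome c, one of −0.58 (1.53-fold lower, 1.36 to 1.72), and cya-5, below 10 RPKM in both libraries, one of −0.27 that turned to 0.049 relative to the median gene. The 3 ATP synthase genes had a median log2 ratio of 0.57, with 296 RPKM in Δ3βGΔncw-1 and 186 RPKM in Δ3βG for atp-1 (NCU02514) and 733 RPKM in Δ3βGΔncw-1 and 494 RPKM in Δ3βG for oli (NCU02250).

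The gene past 2-fold was cyc-1 (NCU01808), the gene of cytochrome c, the carrier between complexes III and IV that the alternative oxidase bypasses. It had 21.8 RPKM in Δ3βGΔncw-1 and 78.8 RPKM in Δ3βG, 3.62-fold lower (3.28 to 4.00), and also passed 2-fold when set against the median gene, at a log2 ratio of −1.49. The ratio of aod-1 to cyc-1 was 0.256 in Δ3βGΔncw-1 and 0.186 in Δ3βG, which is 1.38 times as high (1.14 to 1.67), so cyc-1 differed by more than aod-1. The other 5 genes of its list were within 1.12-fold, with 78.0 RPKM in Δ3βGΔncw-1 and 83.2 RPKM in Δ3βG for fes-1, the Rieske iron-sulfur protein gene, whose log2 ratio of −0.093 turned to 0.23 relative to the median gene. The furthest from 0 of these 5 was pep (NCU02549), at −0.16 as deposited and 0.16 relative to the median gene. The gene listed as cyt-1 (NCU02149) had 18.1 RPKM in Δ3βGΔncw-1 and 17.0 RPKM in Δ3βG.

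**Figure D3:**
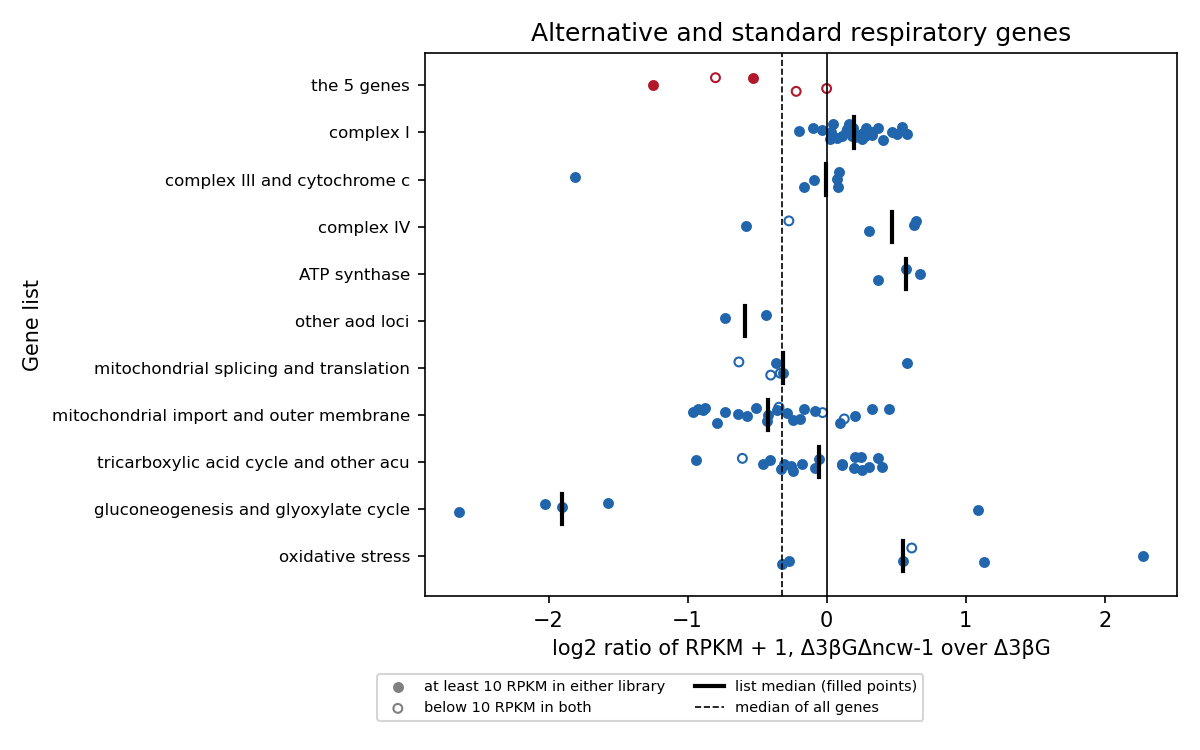
Difference of log2(RPKM + 1), Δ3βGΔncw-1 minus Δ3βG, for the 5 genes (red) and for the listed genes of respiration and related mitochondrial and carbon pathways (blue); filled points reached 10 RPKM in either library, open points did not, black bars are list medians over the filled points, and the dashed line is the median of all genes that reached 10 RPKM, −0.32. Complex I lies around 0.19 while aod-1 is at −1.25 and cyc-1 at −1.81.

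Genes for mitochondrial gene expression and protein import were nearer to the median gene. Of 6 genes for mitochondrial splicing and translation 3 reached 10 RPKM, with a median log2 ratio of −0.32 that became 0.0042 relative to the median gene. The mitochondrial leucyl-tRNA synthetase gene leu-5 had 12.6 RPKM in Δ3βGΔncw-1 and 8.15 RPKM in Δ3βG. The values of cyt-20 were 23.3 RPKM in Δ3βGΔncw-1 and 30.3 RPKM in Δ3βG, those of cyt-21 were 17.8 RPKM in Δ3βGΔncw-1 and 22.5 RPKM in Δ3βG, and cyt-4, cyt-18 and cyt-19 stayed below 10 RPKM in both libraries with log2 ratios between −0.63 and −0.33; cyt-21 turned to 0.0042 relative to the median gene. Of 21 genes of mitochondrial import and the outer membrane that reached 10 RPKM, 0 passed the 2-fold rule, which adds 1 RPKM, in either direction. By that rule 8.08% of the 5988 genes were higher and 11.1% lower. The median log2 ratio of the 21 genes was −0.42, and −0.10 relative to the median gene. The furthest from 0 were tob38, with 8.42 RPKM in Δ3βGΔncw-1 and 17.3 RPKM in Δ3βG, and tim44, with 5.94 RPKM in Δ3βGΔncw-1 and 12.2 RPKM in Δ3βG. Without the added 1 RPKM, tob38 was 2.06-fold lower (1.79 to 2.36) and tim44 2.05-fold lower (1.78 to 2.37).

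In related fungi the counterparts of the AOD-2 and AOD-5 regulators are known, from Podospora anserina, to act on genes of gluconeogenesis as well as on the alternative oxidase gene. The list of gluconeogenesis and glyoxylate cycle genes, whose values were known before they were listed here, had 4 of 5 genes at least 2-fold lower and 1 at least 2-fold higher. Over the 5988 genes 11.1% were lower and 8.08% higher by that rule. The phosphoenolpyruvate carboxykinase gene acu-6 had a log2 ratio of −2.65, the malate synthase gene acu-9 one of −2.03, the fructose bisphosphatase gene fbp-1 one of −1.90 and the isocitrate lyase gene acu-3 one of −1.58. The higher gene was acu-5, at 1.09, an acetyl-CoA synthetase gene placed in this list though its enzyme belongs to neither pathway itself. All 4 lower genes were further from 0 than aod-1. Whether aod-2 or aod-5 had a part in the values of these 5 genes was not tested. None of 19 tricarboxylic acid cycle and remaining acu genes that reached 10 RPKM passed the 2-fold rule, which adds 1 RPKM. Their median log2 ratio of −0.058 turned to 0.26 relative to the median gene. The furthest from 0 were tca-2 at −0.94 and tca-5 at −0.46. Without the added 1 RPKM, tca-2 was 2.06-fold lower (1.82 to 2.33), with 6.79 RPKM in Δ3βGΔncw-1 and 14.0 RPKM in Δ3βG.

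Genes against reactive oxygen, which the alternative oxidase is known to limit by drawing electrons from a full ubiquinone pool, differed in direction. Of 6 listed genes 5 reached 10 RPKM, 3 with a log2 ratio above 0 and 2 below 0 as deposited. At least 2-fold higher were 2 and lower 0, where 8.08% of the 5988 genes were higher and 11.1% lower. The 2 higher were the catalase gene cat-3, with 25.02 RPKM in Δ3βGΔncw-1 and 4.37 RPKM in Δ3βG, so that the limit fixed its direction, and the cytosolic superoxide dismutase gene sod-1, with 516 RPKM in Δ3βGΔncw-1 and 235 RPKM in Δ3βG. Short of 2-fold were cat-1, at a log2 ratio of 0.55, and cat-2, at −0.27 as deposited and 0.053 relative to the median gene. The mitochondrial superoxide dismutase gene sod-2 had 39.7 RPKM in Δ3βGΔncw-1 and 49.9 RPKM in Δ3βG, a log2 ratio of −0.32 that lay −0.0031 from the median gene.

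Markers of conidia and of conidiating or perithecial tissue also differed between the libraries. Of 9 listed markers 8 reached 10 RPKM, of which 4 were at least 2-fold lower in Δ3βGΔncw-1 and 0 higher. Over the 5988 genes 11.1% were lower and 8.08% higher by that rule. The 4 lower were app at a log2 ratio of −7.37, eas at −5.11, acon-3 at −3.87 and fl at −1.97. Both app and acon-3 (2.07 RPKM in Δ3βGΔncw-1 and 43.9 RPKM in Δ3βG) reached 10 RPKM in Δ3βG only, so the limit fixed their direction. Short of 2-fold were con-6 at −0.85 and acon-2 at −0.037. The summed level of the 9 markers was 2539 RPKM in Δ3βGΔncw-1 and 62268 RPKM in Δ3βG, most of it from the hydrophobin gene eas. Without eas it was 793 RPKM in Δ3βGΔncw-1 and 1918 RPKM in Δ3βG. The largest part of that Δ3βG sum came from the perithecial marker app, with 4.88 RPKM in Δ3βGΔncw-1 and 969 RPKM in Δ3βG. No marker was at 0 in either library; con-8 and con-10 were higher in Δ3βGΔncw-1 as deposited, at log2 ratios of 0.076 and 0.44. In RNA from whole mycelia, fewer cells of a type and less RNA per cell cannot be told apart, and the part of these markers in the lower level of aod-1 was not tested.

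Across all genes, the pattern of aod-1 over the 2 libraries was nearest to those of NCU01580, NCU02119 and NCU01903, by Euclidean distance of log2(RPKM + 1), at distances of 0.0062, 0.039 and 0.045. Their log2 ratios were −1.26, −1.31 and −1.22. For nde-1, the dehydrogenase gene with the highest RPKM of the 3, the nearest were gh13-3, NCU03248 and NCU03516, at 0.01002, 0.021 and 0.030. With only 2 libraries such closeness is shared by many genes.

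**Figure D4:**
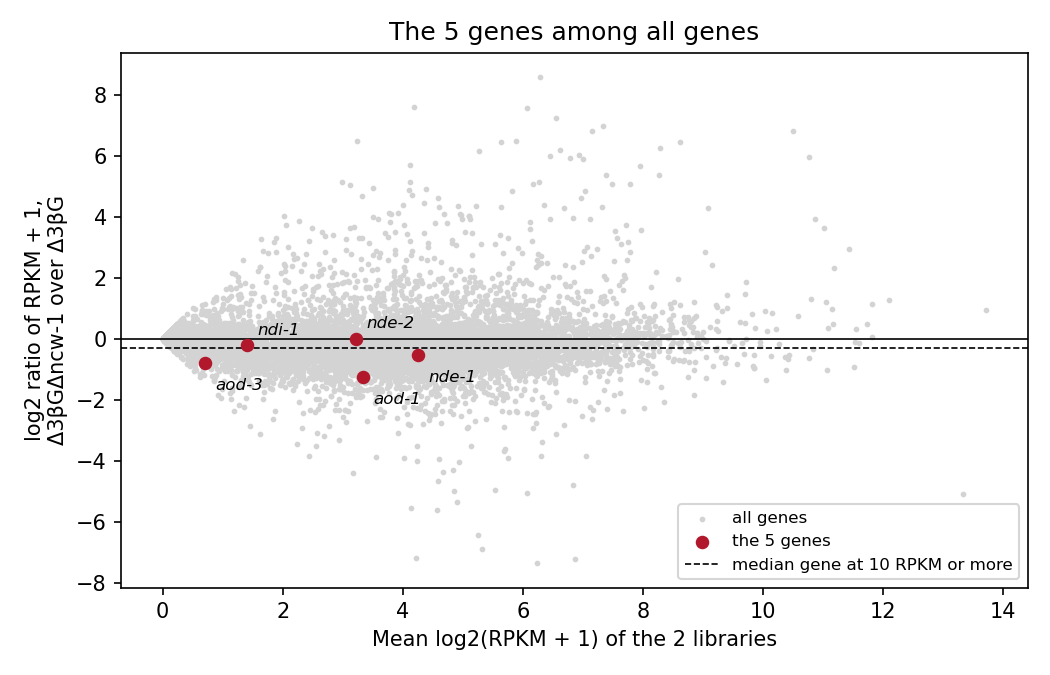
Difference of log2(RPKM + 1), Δ3βGΔncw-1 minus Δ3βG, against the mean log2(RPKM + 1) of the 2 libraries for all 9730 genes (light grey), with the 5 genes in red; the dashed line is the median gene, −0.32. Of the 5, aod-1 lies furthest below the line, at −1.25, and nde-2 and ndi-1 lie above it.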

How the data were processed

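RNA was sequenced from 1 library of each of 2 strains. Per the labels' protocols, filtered mycelia were frozen, RNA was isolated with TRIzol and RNeasy columns, and libraries followed Illumina protocols. DESeq 1.5.1, TopHat2 2.0.8b and HTSeq 0.5.4p2 are named, without roles, in the submitters' processing notes. Neither labels nor file header give the build, the annotation, the strand setting or how reads of near-identical copies were counted. The authors deposited RPKM values per the file headers, and 0 columns of values were left unused. Of 9730 genes, 9729 matched the NC12 reference table, used for symbols, neighbours and spans, and no coordinates are given. Library totals are the commonest total for which a gene's RPKM over its span equals 1 read. A gene's reads are the smallest solution at 50% or more of its span that is whole in both libraries, within 1e-06 reads plus 1e-09 of the number. Ratios have exact Clopper-Pearson intervals, levels have Poisson intervals, and ratios between genes have exact conditional odds-ratio intervals, all at 95% (SciPy 1.17.1). Reads are not independent molecules, so these cover counting error only. This procedure was tested on simulated data.

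The size rule was 2-fold on log2(RPKM + 1) for genes at 10 RPKM or more in either library, deleted genes left out. A gene under 10 RPKM in 1 library passes only through the other, which fixes its direction. Of the 5 genes, aod-1 and nde-1 reached that level. Lists were taken by symbol; complex II matched no gene. Named were the 5 genes, the 2 furthest from 0 in each list, every aod, cyt, sod and gluconeogenesis gene, and the 3 nearest patterns; nde-3, NCU05226 and the comparisons between genes were added after values had been seen. Members and lists were chosen with earlier results of these data known. Alternatives were pseudocounts of 0.1 and 5 RPKM and none (also none together with median centring), minimum values of 5 and 50 RPKM and none, a 1.5-fold rule, median centring, trimmed mean scaling (30% of ratios and 5% of levels trimmed) and equal sums.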

Additional observations from a re-analysis of the deposited data

How the results depend on the processing

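The log2 ratio of aod-1 stayed negative in every alternative run, between −1.39 and −0.89, and was short of 2-fold with median centring (−0.93), trimmed mean scaling (−0.97) and a pseudocount of 5 RPKM (−0.89). It was past 2-fold with equal sums (−1.30), a pseudocount of 0.1 RPKM (−1.38), no pseudocount (−1.39) and no pseudocount with median centring (−1.06), so the call depends on scaling and pseudocount together. For aod-3 it was −1.90 with a pseudocount of 0.1 RPKM and −2.29 with none, and −1.95 with none and median centring, both alternatives chosen after seeing the data; its small read number makes the added RPKM decide the value. For nde-1 it was −0.21 with median centring and −0.22 with trimmed mean scaling or with no pseudocount and centring; for nde-2 it was 0.32, 0.29 and 0.33 under those 3. Other values of the 5 genes moved by less than their counting intervals. The number of respiratory chain genes past the size rule toward higher values was 0 as reported and 3 with a 1.5-fold rule, which is looser by construction, and was 0 in the other alternatives. List medians that turned sign were those of complex III and cytochrome c (−0.0086 as deposited, 0.31 with both centring and trimmed mean scaling), of the tricarboxylic acid cycle (0.26 and 0.27), of mitochondrial splicing and translation (0.0042 with centring) and of mitochondrial import with a minimum of 50 RPKM (0.21). A minimum of 50 RPKM left no aod or splicing and translation gene. No paired analysis was possible because there was 1 library per genotype. For the same reason no library could be left out, and counting error limits aod-3 and ndi-1.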
